A study of Mus musculus with 10 samples.

Results

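Mucin-type O-glycosylation attaches the sugar N-acetylgalactosamine (GalNAc) to serine and threonine residues of proteins that pass through the Golgi apparatus. The first step is carried out by a large family of GalNAc-transferases, encoded by the Galnt genes, which differ in the peptides they use and in whether they need a neighbouring sugar already in place. Other enzymes then extend the first sugar into longer chains and cap them with sialic acid, and the finished glycans sit on mucins, on receptors of the LDL receptor family and on other proteins of the cell surface.

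Transcript levels of 10 members of this family, *Galnt1*, *Galnt2*, *Galnt3*, *Galnt7*, *Galnt10*, *Galnt11*, *Galnt13*, *Galnt14*, *Galnt16* and *Galnt18*, were read from the gene counts by symbol, and all 10 were found among 52227 genes. The family has 9 further genes in the same table, which gives 19 in all. *Galnt14* was selected on the comparison of genotypes reported here, so its difference is a description and no p is given for it. The other 9 members were chosen with it as relatives, with earlier results of these data known.

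RNA was sequenced from the cortical hem (CH), the dorsal midline signaling center of the embryonic telencephalon, cut out by laser capture microdissection at embryonic day 13.5. There were 5 wild-type (WT) mouse embryos and 5 *Lmx1a-/-* embryos, which carry the point mutation drJ (dreherJ) in both copies of the LIM-homeodomain transcription factor gene *Lmx1a*, on a mixed C57Bl6, FVB and CD1 background. Sections of 1 embryo were pooled into 1 library, and the hem was cut under bright field with boundaries taken from neighbouring sections stained for Lmx1a protein. Library totals lay between 19145952 and 36462780 counts. Since drJ is a point mutation, the *Lmx1a* transcript does not check the labels by its absence. *Lmx1a* stood at 71.2 ± 18.2 CPM (read counts scaled to a common library size, mean ± SD, n = 5) in WT and at 114 ± 21 CPM in *Lmx1a-/-* embryos, a log2 fold change of 0.68 with a standard error (SE) of 0.17.

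Some libraries stood apart from their group. WT embryo 3 had the lowest summed level of the 10-gene choroid plexus list among all libraries (95.6 CPM, against 239 to 444 CPM in the other WT embryos). Its mean over the 13 genes of the CH list, on the log2 scale, was 6.53, against 7.20 to 7.42 in the other WT and 6.46 to 7.06 in the *Lmx1a-/-* embryos. WT embryo 1 and all 5 *Lmx1a-/-* embryos carried Y-linked transcripts, while WT embryos 2 to 5 had *Xist*, the transcript of the inactive X chromosome, at 4400 to 5170 CPM, so sex and genotype were nearly confounded. All 13 CH genes passed the filter on low counts in these samples, and the summed level of the list ranged from 2285 to 4327 CPM in WT and from 2760 to 3895 CPM in *Lmx1a-/-* embryos.

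*Galnt14* encodes a GalNAc-transferase known for modifying death receptors of the TRAIL pathway. The gene, ENSMUSG00000024064, lies on the minus strand of chromosome 17 at positions 73493228 to 73710453 of GRCm38. In WT embryos 1 to 5 its normalized level was 35.4, 49.4, 12.9, 28.4 and 42.1 CPM. In *Lmx1a-/-* embryos 1 to 5 it was 3.66, 3.86, 5.79, 8.28 and 4.97 CPM. WT embryo 3 was the lowest of its group and *Lmx1a-/-* embryo 4 the highest of its own, and the groups did not overlap. The means were 33.6 ± 14 CPM in WT and 5.31 ± 1.87 CPM in *Lmx1a-/-* embryos (SD, n = 5 each), a 6.33-fold lower level in *Lmx1a-/-* embryos. The fitted log2 fold change was -2.65 with an SE of 0.33, and without WT embryo 3 it was -2.86. Between 71 and 1139 reads per library stood behind these values. In bulk tissue, fewer cells that express the gene and less of its RNA per cell cannot be told apart.

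The levels of the tested members by embryo show *Galnt14* as the one gene of the 9 whose genotypes were fully apart. Among all genes tested, 4.44% were fully apart, and *Galnt14* was selected on this contrast.

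**Figure D1:**
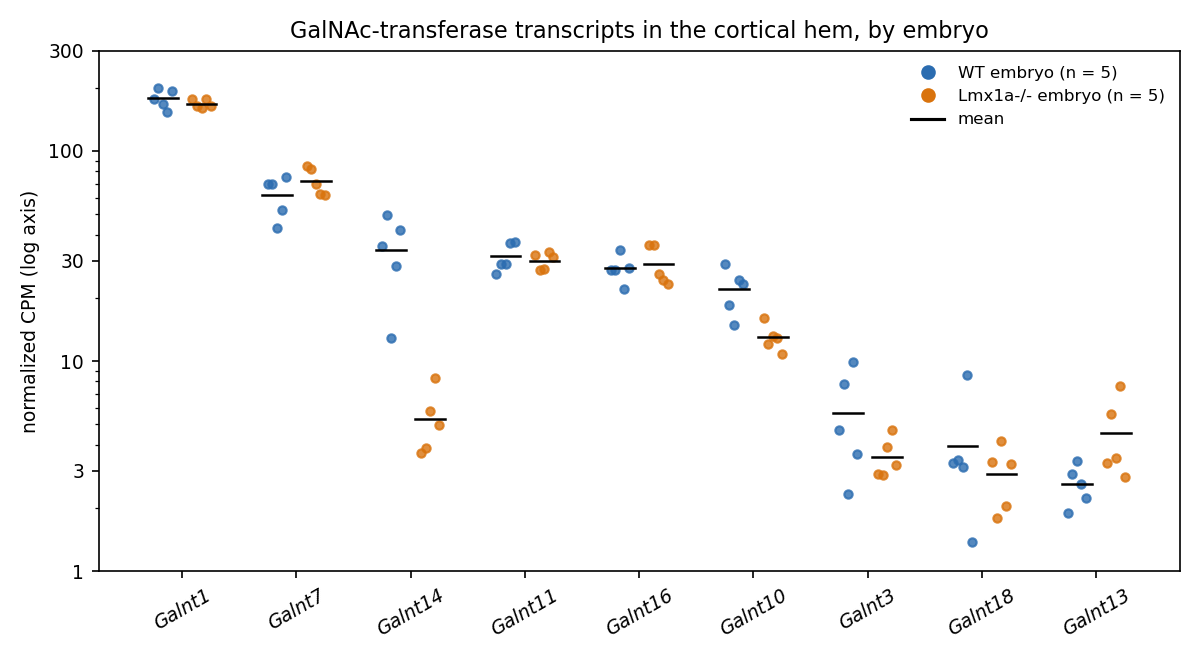
Normalized CPM on a log axis for the 9 tested members, ordered by their WT mean. Each point is 1 embryo (5 WT, 5 *Lmx1a-/-*), and the bar is the group mean. For *Galnt14*, which was selected on this contrast, the 5 WT embryos lie between 12.9 and 49.4 CPM. All 5 *Lmx1a-/-* embryos lie below them at 3.66 to 8.28 CPM, and for the other 8 genes the groups overlap.

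*Galnt2* could not be measured. It was counted 0 to 8 times per library and 26 times in all, below the filter of at least 10 counts in at least 3 libraries. In the GENCODE annotation, 3854 of its 4282 exon bases (90%) also belong to *Gm20388*, a gene model on the same strand, which itself was counted 0 times in every library. Under the default mode of the counter HTSeq, reads that fall on more than 1 gene are set aside, and the mode used is not given in the sources used here. These counts therefore give no level for *Galnt2*. The other 9 members passed the filter, each with at least 33 counts in every library of both genotypes.

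Of the 9 tested members, 2 passed the threshold (Benjamini-Hochberg adjusted p under 0.1 in edgeR's quasi-likelihood test over 21664 genes). Both, *Galnt14* and *Galnt10*, were lower in *Lmx1a-/-* embryos, 0 were higher and 7 did not pass. Among all genes tested, 2.29% were called lower, 1.72% higher and 4.02% in either direction. Nothing is read from the count of 2, because *Galnt14* was selected on this contrast. Groups were fully apart for 1 of the 9 members, *Galnt14*, and for 4.44% of all genes. The fitted log2 fold change was negative for 6 members and positive for 3, with a median of -0.08 beside -0.00494 over all genes.

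The first 250 bases before the RefSeq start of the 2 genes that passed are shown, since these are the members past the threshold. In GRCm38.p6 the *Galnt14* stretch is chr17:73710452-73710701 on the minus strand and the *Galnt10* stretch is chr11:57645192-57645441 on the plus strand, both printed 5′ to 3′ along the gene. Capitals mark CCGCCC, the reverse complement of the GC box GGGCGG that Sp-family factors bind.
Galnt14: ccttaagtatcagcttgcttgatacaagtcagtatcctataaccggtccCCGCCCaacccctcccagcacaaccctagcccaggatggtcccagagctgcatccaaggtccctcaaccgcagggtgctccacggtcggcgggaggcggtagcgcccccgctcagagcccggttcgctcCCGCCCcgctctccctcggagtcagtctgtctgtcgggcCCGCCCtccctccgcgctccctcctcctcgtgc
Galnt10: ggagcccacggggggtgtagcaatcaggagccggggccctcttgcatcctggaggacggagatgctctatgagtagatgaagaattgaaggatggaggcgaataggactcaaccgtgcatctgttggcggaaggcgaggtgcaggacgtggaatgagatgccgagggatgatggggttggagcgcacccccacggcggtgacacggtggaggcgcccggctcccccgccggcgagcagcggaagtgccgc

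*Galnt14* had 3 GC boxes, beginning 201, 72 and 33 bases before the start, and *Galnt10* had none. RefSeq promoter windows of 300 bases (250 before to 50 after the start) were matched by symbol for 7 of the 10 members, 10 windows in all, and *Galnt1*, *Galnt2* and *Galnt18* had no entry. GGGCGG on either strand was in 35.7% of 32851 windows, and in members it was also found in those of *Galnt3* (3 matches), *Galnt7*, *Galnt11* and *Galnt13* (2 each). Neither TAATTA, the core letters of many homeodomain sites, nor CTTTGAT, letters bound by Tcf/Lef factors, was found in any of the 10 windows, while 5.29% and 3.73% of all windows held them. CCAAT, the letters bound by NF-Y, was found once, in a *Galnt16* window, against 37.4% of all windows. All 4 motifs were searched on both strands, and they do not overlap each other. The *Galnt14* window was 67.3% G and C with 23 CpG dinucleotides, and the *Galnt10* window 66% with 28, against medians of 52.7% and 7 over all windows. Matches of letters are descriptions, not sites.

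The closest relative of *Galnt14* in sequence, *Galnt16*, did not pass the threshold. The proteins of all 19 family genes were translated from the longest coding transcript of each gene. The 550-residue *Galnt14* protein was most like *Galnt16*, with 303 of 539 aligned residues identical (56.2%), then *Galnt2* (51.7%), and least like *Galnt9* (36.6%). *Galnt16* stood at 27.2, 27.2, 33.9, 22 and 27.8 CPM in WT embryos 1 to 5 and at 35.8, 35.8, 26.1, 24.4 and 23.4 CPM in *Lmx1a-/-* embryos 1 to 5. The ranges overlapped widely, with the highest WT value in embryo 3, where *Galnt14* was lowest. The log2 fold change of *Galnt16* was 0.07 (SE 0.15, adjusted p = 0.858), a value that changed sign when 1 of 3 single embryos was left out.

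*Galnt1* and *Galnt13* are broadly acting initiating transferases, *Galnt1* in most tissues and *Galnt13* mainly in neural tissue, and their proteins were 84% identical. *Galnt1* had the highest level of the family, at 178 ± 18.9 CPM in WT and 168 ± 7.59 CPM in *Lmx1a-/-* embryos, with a log2 fold change of -0.08 (SE 0.08, adjusted p = 0.654). *Lmx1a-/-* embryos ranged from 161 to 177 CPM, inside the range of the WT embryos. *Galnt13* was at 1.9, 2.89, 3.35, 2.59 and 2.22 CPM in WT embryos 1 to 5. In *Lmx1a-/-* embryos 1 to 5 it was at 3.26, 5.6, 3.47, 7.64 and 2.82 CPM. *Lmx1a-/-* embryos 2, 3 and 4 lay above the highest WT embryo, and embryos 1 and 5 lay within the WT range. Its log2 fold change of 0.81 (SE 0.30) did not pass the threshold (adjusted p = 0.194).

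*Galnt3*, known for protecting the hormone FGF23 from cleavage, stood at 4.7, 7.76, 2.32, 9.86 and 3.62 CPM in WT embryos 1 to 5 and between 2.88 and 4.71 CPM in *Lmx1a-/-* embryos. WT embryos 2 and 4 were above every *Lmx1a-/-* embryo and WT embryo 3 below all of them. Its log2 fold change was -0.68 (SE 0.35, adjusted p = 0.358), and it was positive when the mean of the CH list or of the choroid plexus list was in the fit.

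*Galnt7* and *Galnt10* are follow-up transferases, which prefer peptides that already carry a GalNAc. *Galnt10*, on the plus strand of chromosome 11 at positions 57645442 to 57787514, was at 28.9, 18.4, 14.9, 24.3 and 23.3 CPM in WT embryos 1 to 5. In *Lmx1a-/-* embryos 1 to 5 it was at 16.1, 12.1, 13.2, 12.9 and 10.8 CPM. Groups overlapped only through WT embryo 3 and *Lmx1a-/-* embryo 1. *Galnt10* averaged 22 ± 5.41 CPM in WT and fell to 13 ± 1.96 CPM in *Lmx1a-/-* embryos. The fitted difference was -0.75 on the log2 scale, with SE 0.18 and adjusted p = 0.0438 in edgeR's quasi-likelihood test. The call was lost when WT embryo 1, *Lmx1a-/-* embryo 4 or *Lmx1a-/-* embryo 5 was left out (adjusted p of 0.108, 0.1 and 0.103), and the direction was the same in each. Without WT embryo 3 its log2 fold change was -0.87 (adjusted p = 0.0112). Over all 21 alternatives its adjusted p ranged from 0.0021 to 0.771. *Galnt7* was at 69.5, 69.4, 43.2, 52.5 and 75.1 CPM in WT embryos 1 to 5 and at 85.2, 82.2, 69.8, 62.6 and 61.4 CPM in *Lmx1a-/-* embryos 1 to 5. WT embryos 3 and 4 were lowest, and the other values were mixed (log2 fold change 0.22, SE 0.15, adjusted p = 0.507).

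*Galnt11*, known for acting on the linker regions of LDL receptor-related proteins, stood at 26.1 to 36.9 CPM in WT and 27 to 32.9 CPM in *Lmx1a-/-* embryos, with a log2 fold change of -0.06 (SE 0.12, adjusted p = 0.841). *Galnt18*, whose protein was most like those of *Galnt17* and *Galnt9* (51.1% and 50.7% identity), was at 3.28, 3.38, 3.12, 8.61 and 1.37 CPM in WT embryos 1 to 5. In *Lmx1a-/-* embryos it lay between 1.79 and 4.16 CPM. Its log2 fold change of -0.43 (SE 0.41, adjusted p = 0.658) rested on WT embryo 4 and was 0.06 without it.

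Of the 9 other family genes, 6 were tested and 0 passed, with a median log2 fold change of 0.23. Beside that 0, DESeq2 called 1 of the 6, *Galnt12*. *Galnt12* fitted at -0.95 (SE 0.36, adjusted p = 0.196) in edgeR's quasi-likelihood test, with WT embryos at 2.94 to 12.7 CPM and *Lmx1a-/-* embryos at 3.07 to 7.06 CPM. WT embryo 3 was the lowest of all 10 libraries for *Galnt12*, and edgeR called the gene without that embryo. *Galnt4*, the closest relative of *Galnt12* (57.1% identity), fitted at -0.04 (SE 0.13), at 19.4 ± 3.35 and 18.8 ± 1.29 CPM. *Galnt15*, *Galnt17*, *Galnt5* and *Galntl6* each had means under 6 CPM in both genotypes and fitted at 0.11, 0.41, 0.65 and 0.35 with SEs of 0.30, 0.32, 0.90 and 0.58. *Galnt6*, *Galnt9* and *Galntl5* did not pass the filter, with at most 5, 8 and 2 counts in a library.

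**Figure D2:**
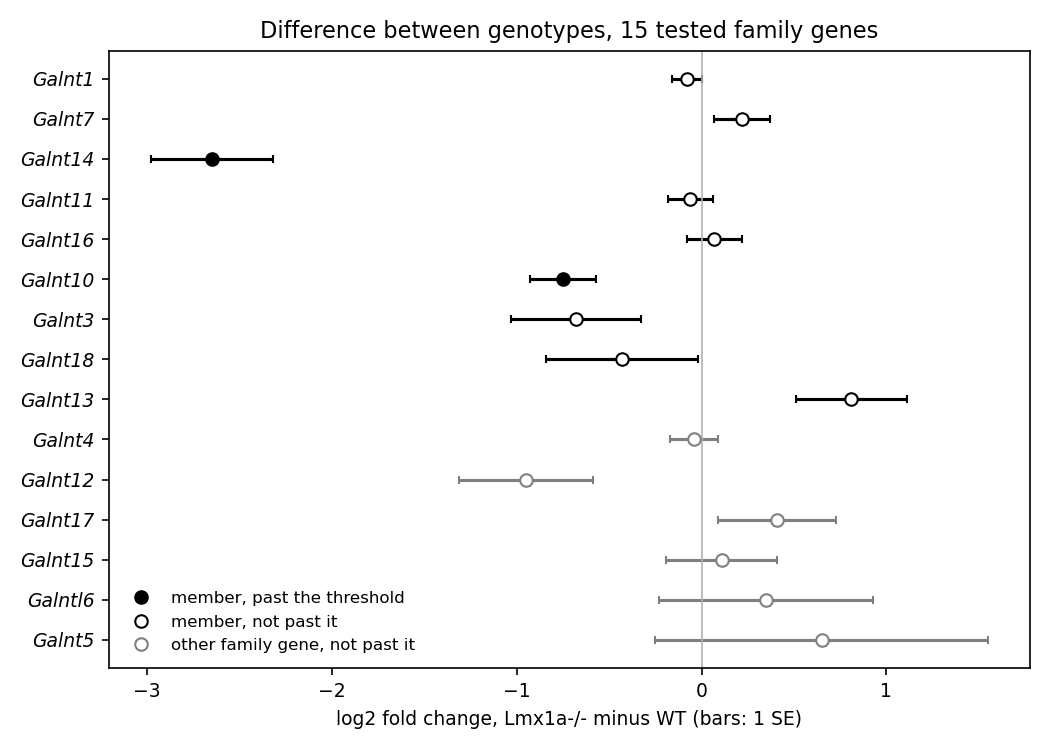
Log2 fold change (*Lmx1a-/-* minus WT) with 1 SE for the 15 tested family genes, from the fit across all genes. Filled points passed the threshold. *Galnt14* at -2.65 and *Galnt10* at -0.75 are the filled points, and the other 13 genes lie between -0.95 and 0.81 without passing. *Galnt14* was selected on this contrast.

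Compared per kb of summed exon length, *Galnt1* led in WT embryos at 32.3 ± 3.42 CPM per kb, followed by *Galnt7* at 11.8 ± 2.57 CPM per kb. *Galnt14* came next at 5.7 ± 2.37 CPM per kb, before *Galnt11* (4.59 ± 0.712), *Galnt10* (3.68 ± 0.907) and *Galnt16* (3.43 ± 0.523 CPM per kb), neighbours whose levels lay within their SDs. *Galnt18*, *Galnt3* and *Galnt13* were lowest, at 1.54 ± 1.06, 1.29 ± 0.707 and 0.332 ± 0.0724 CPM per kb. In *Lmx1a-/-* embryos *Galnt14* stood at 0.901 ± 0.317 CPM per kb, between *Galnt18* (1.13 ± 0.379) and *Galnt3* (0.803 ± 0.179), which also lay within their SDs. *Galnt1* and *Galnt7* kept their places at 30.5 ± 1.38 and 13.7 ± 2.09 CPM per kb.

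The summed CPM of the 9 tested members differed less in proportion than *Galnt14* did. The sum was 367 ± 42.3 CPM in WT (311 to 407) and 329 ± 21.2 CPM in *Lmx1a-/-* embryos (304 to 359), with overlapping ranges. Without *Galnt14* the sums were 333 ± 29 and 324 ± 21.8 CPM. *Galnt14* made up 9.49%, 12.1%, 4.15%, 8.4% and 10.4% of the sum in WT embryos 1 to 5. In *Lmx1a-/-* embryos 1 to 5 it made up 1.02%, 1.15%, 1.84%, 2.5% and 1.64%. *Galnt1* took 48.7 ± 3.28% of the sum in WT and 51.2 ± 2.11% in *Lmx1a-/-* embryos. *Galnt7* took 16.7 ± 2.02% and 21.9 ± 2.34%, and its shares (13.9% to 18.6% against 18.9% to 24.5%) were apart while its CPM overlapped. *Galnt10* went the other way, from 6 ± 1.43% to 3.95 ± 0.393%. Its shares (4.51% to 7.74% against 3.55% to 4.48%) were also apart while its CPM overlapped. Shares of 1 sum are tied to each other, so a lower share of *Galnt14* raises the rest.

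**Figure D3:**
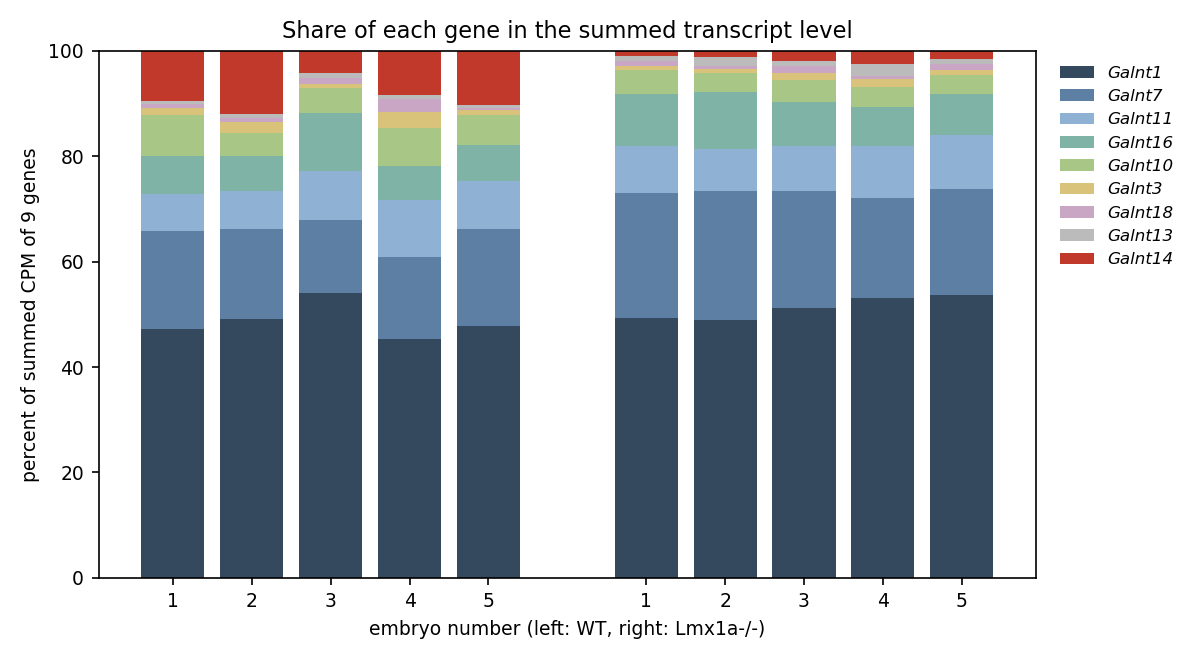
Percent of the summed CPM of the 9 tested members taken by each gene, 1 bar per embryo, WT on the left and *Lmx1a-/-* on the right. *Galnt14*, at the top of each bar, takes 4.15% to 12.1% in WT and 1.02% to 2.5% in *Lmx1a-/-* embryos.

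Within genotypes *Galnt14* moved with the level of CH markers. After each gene's genotype mean was removed, the deviations of *Galnt14* had a Pearson r of 0.98 and a Spearman rho of 0.96 with the mean of the 13 CH genes over the 10 libraries, and r = 0.96 without the 2 farthest libraries, WT embryo 3 and *Lmx1a-/-* embryo 1. Leaving *Lmx1a* out of the list left r at 0.98. These are descriptions, as the points share depth and dissection with the markers. WT embryo 3 had a CH mean within the range of the *Lmx1a-/-* embryos and *Galnt14* at 12.9 CPM, and the highest *Lmx1a-/-* embryo had 8.28 CPM. With the CH mean without *Lmx1a* as a covariate, a setting chosen after seeing the data, the log2 fold change of *Galnt14* was -1.52. Of the 13 CH genes, 5 were lower and 1, *Lmx1a*, higher in *Lmx1a-/-* embryos, so this covariate carries part of the genotype difference itself.

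Choroid plexus markers also moved with *Galnt14*. Their deviations had r = 0.82 and rho = 0.71 with those of *Galnt14* over the 10 libraries, but r = 0.42 without WT embryos 2 and 3, the farthest, so the relation rested on those embryos. The summed list was at 406, 444, 95.6, 239 and 376 CPM in WT embryos 1 to 5 and between 125 and 191 CPM in *Lmx1a-/-* embryos, with 2 of 9 tested genes called lower. *Ttr*, the main transcript of choroid plexus epithelium, ranged from 5.74 to 164 CPM in WT and from 1.14 to 15.1 CPM in *Lmx1a-/-* embryos, and *Kl* was at most 0.571 CPM in every library. With the choroid plexus mean as a covariate, the log2 fold change of *Galnt14* was -1.40 and that of *Galnt10* -0.43, and neither passed the threshold. This mean had r = -0.775 with genotype, so it and the genotype can hardly be told apart in these libraries.

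**Figure D4:**
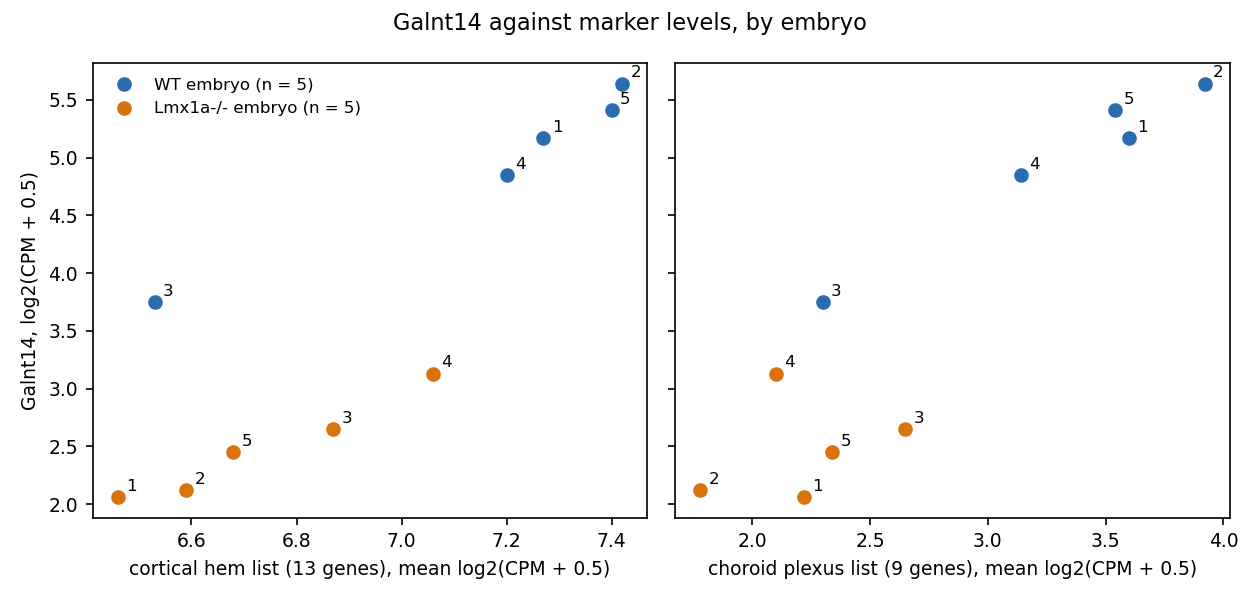
Log2(CPM + 0.5) of *Galnt14* against the mean log2(CPM + 0.5) of the 13 CH genes (left) and of the 9 tested choroid plexus genes (right), 1 numbered point per embryo. WT embryo 3 lies within the *Lmx1a-/-* range of both lists, with *Galnt14* at 3.75, and the highest *Lmx1a-/-* embryo has 3.13.

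Deviations of the other cell type lists were set beside those of *Galnt14* in the same way. Over the 10 libraries, r of the deviations was 0.16 for Cajal-Retzius cells, -0.49 for cortical neuroepithelium, -0.62 for neurons, -0.42 for endothelium, -0.61 for mesenchyme and meninges, -0.21 for red blood cells and 0.47 for microglia. Without the 2 farthest libraries of each list, r was -0.36, -0.35, -0.45, -0.44, -0.30, -0.21 and -0.23 in the same order. Summed levels in WT and *Lmx1a-/-* embryos were 317 to 515 against 208 to 306 CPM for the Cajal-Retzius list, 358 to 699 against 614 to 840.0 CPM for neuroepithelium and 745 to 1146 against 837 to 1291 CPM for neurons. They were 20.8 to 73.2 against 18.8 to 56.3 CPM for endothelium, 312 to 908 against 238 to 502 CPM for mesenchyme and meninges, 617 to 1463 against 261 to 568 CPM for red blood cells and 12.1 to 24 against 12.5 to 27.3 CPM for microglia. Of the tested genes, 3 of 7 were lower for mesenchyme and meninges, 3 of 7 lower and 1 higher for Cajal-Retzius cells, 1 of 6 higher for neuroepithelium, and 0 passed in edgeR in the other 4 lists. The part of these lists in the difference of *Galnt14* was not tested. Among the 6 libraries with Y-linked transcripts (1 WT, 5 *Lmx1a-/-*), the log2 fold change was -2.73 for *Galnt14* and -1.15 for *Galnt10*. With 1 WT embryo, this fit holds no spread between WT embryos. With *Xist* as a covariate over all 10 libraries, *Galnt10* fitted at -1.15 and did not pass (adjusted p = 0.168 in edgeR's quasi-likelihood test). *Xist* had r = -0.825 with genotype, so the 2 can hardly be told apart.

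Among 9268 tested genes with a mean of at least 10 CPM, the deviations most like those of *Galnt14* were those of *Wnt9a*, a Wnt ligand, and *Sulf1*, an extracellular sulfatase of heparan sulfate (r = 0.98 each over 10 libraries), then *Rbm47*, *Lrrc23* and *Tmem170* (0.97 each). *Wnt9a* averaged 58.2 CPM in WT and 31.6 CPM in *Lmx1a-/-* embryos, and *Sulf1* 837 and 288 CPM. *Rbm47*, *Lrrc23* and *Tmem170* had log2 fold changes of -0.27, -0.04 and -0.21 between genotypes. The r of these 5 genes pools the deviations of both genotypes. It was not computed inside each genotype or with libraries left out. With the genotype difference kept in, *Dnah9* and *Itpr1* were most like *Galnt14* (r = 0.98), then *Lrrtm3*, *C130073E24Rik* and *Rfxap* (0.97 each). These genes had log2 fold changes from -2.67 to -1.10. Their r therefore includes the genotype difference on which *Galnt14* was selected. Inside the family, r of the deviations was 0.68 for *Galnt12*, 0.63 for *Galnt3*, 0.62 for *Galnt4*, 0.52 for *Galnt1*, 0.45 for *Galnt7* and 0.35 for *Galnt10*, and it was -0.78 for *Galnt17* and -0.59 for *Galnt16*.

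Of the annotated features in the table, 5 overlap *Galnt14*, and the mean of each was lower in *Lmx1a-/-* embryos. *AC107792.3*, an unclassified transcript on the same strand, was at 8.92, 10.2, 2.56, 3.94 and 9.68 CPM in WT embryos 1 to 5 and at 0.632, 1.58, 0.341, 0.748 and 0.73 CPM in *Lmx1a-/-* embryos 1 to 5. Its groups were apart, and its log2 fold change was -3.16 (SE 0.46). *D630014O11Rik*, a transcript annotated in an intron on the same strand, averaged 3.96 ± 2.97 CPM in WT and 0.383 ± 0.316 CPM in *Lmx1a-/-* embryos, with overlap through WT embryo 3. The antisense transcripts *AC107792.1* and *AC132911.1* fitted at -1.75 and -2.70 and the pseudogene *AC132911.2* at -2.46, each with at most 66 counts in a library. The strand setting of the counter is not given in the sources used here, so reads of *Galnt14* and of an antisense feature may not be told apart. *AC107792.3*, *D630014O11Rik* and *AC132911.2* overlap *Galnt14* on its own strand outside its exons. Whether reads of unspliced *Galnt14* RNA were counted in them was not tested. Exons of *Galnt14* shared 36 of their 5898 bases with *AC107792.1* on the opposite strand and none with a gene on its own strand.

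**Figure D5:**
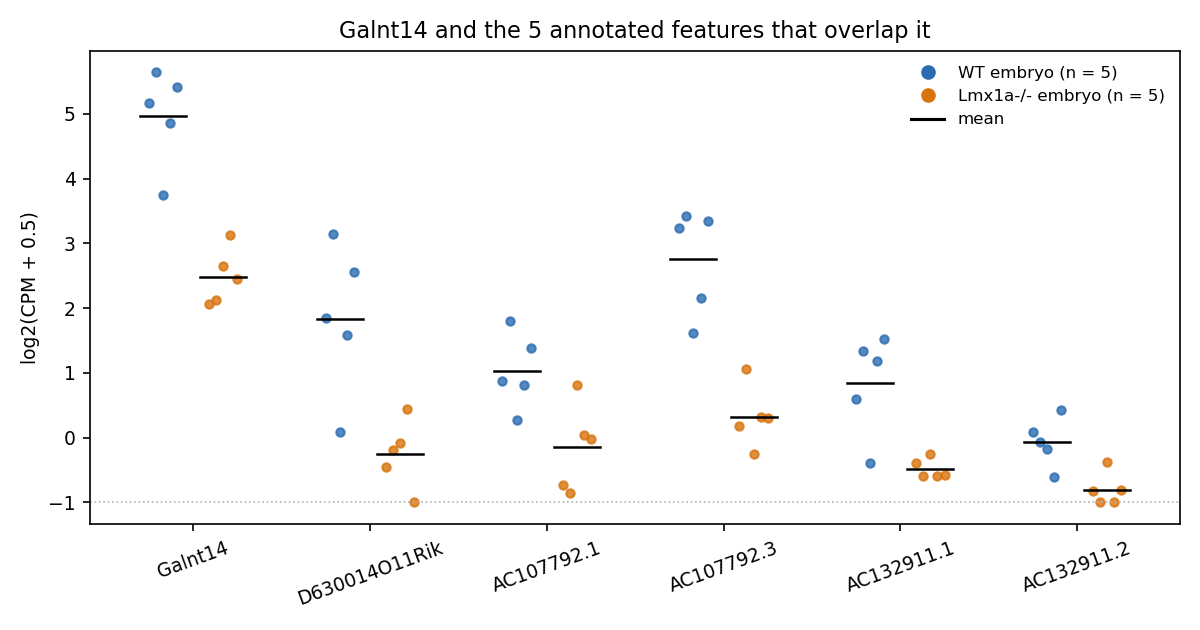
Log2(CPM + 0.5) of *Galnt14* and of the 5 annotated features that overlap it, 1 point per embryo with the group mean as a bar, and a dotted line at the value of 0 counts. *Galnt14*, which was selected on this contrast, and *AC107792.3* show no overlap between genotypes, and the other 4 features overlap.

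The nearest tested protein-coding genes on either side of *Galnt14* did not pass the threshold. *Ehd3*, 94 kb away and the closest, averaged 9.02 ± 2.62 CPM in WT and 7.36 ± 0.939 CPM in *Lmx1a-/-* embryos (log2 fold change -0.29, SE 0.20, adjusted p = 0.511). *Lclat1*, *Lbh* and *Ypel5* on the other side fitted at -0.10, 0.04 and 0.01, and *Memo1* and *Dpy30* beyond *Ehd3* at 0.16 and 0.09.

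The enzymes that act after the GalNAc-transferases did not pass the threshold in any of the 3 lists examined. For extension to core 1 and core 2 glycans, 3 of 7 genes were tested and 0 passed with edgeR or DESeq2 (median log2 fold change -0.23). The smallest p belonged to *C1galt1c1*, the chaperone of the core 1 galactosyltransferase (-0.23, SE 0.15, adjusted p = 0.486), and to *Gcnt1*, a core 2 enzyme (-0.38, SE 0.31, adjusted p = 0.593). For sialylation, 5 of 6 genes were tested and 0 passed with either tool (median 0.09), with *St6galnac4* at -0.39 (SE 0.19) and *St6galnac3* at 0.09 (SE 0.08). For the supply of nucleotide sugars, all 12 genes were tested and 0 passed with either tool (median -0.0013). *Slc35a1*, the Golgi transporter of CMP-sialic acid, fitted at 0.37 (SE 0.13, adjusted p = 0.182), and *Uap1*, which makes UDP-GalNAc and its epimer, at -0.32 (SE 0.12, adjusted p = 0.21).

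Among proteins that carry mucin-type O-glycans, 16 of 18 genes in the table were tested and 0 passed in edgeR's quasi-likelihood test as set here (median -0.06). *Dag1*, which encodes dystroglycan with its mucin-like region, was nearest at 211 ± 20.2 and 173 ± 16.8 CPM (log2 fold change -0.29, SE 0.09, adjusted p = 0.11). It was called in 4 of 22 alternatives, namely DESeq2, the newer dispersion method of edgeR, and without WT embryo 3 or *Lmx1a-/-* embryo 3. With the CH covariate, 3 receptors of the LDL receptor family were called higher in edgeR, *Lrp2* at 1.07, *Lrp8* at 0.68 and *Vldlr* at 0.61 (adjusted p of 0.0353, 0.0402 and 0.0501), against 0.25, 0.29 and 0.13 without it (adjusted p of 0.637, 0.321 and 0.747). That setting was chosen after seeing the data and called 174 of 21664 genes higher. Its covariate had r = -0.693 with genotype, so nothing is read from these calls. Among the libraries with Y-linked transcripts, which hold 1 WT embryo, *Cd34* fitted at -1.88, against -0.82 over all libraries (adjusted p = 0.323 in edgeR). The 5 WT embryos ranged from 3.74 to 20.6 CPM for *Cd34*, so the value depends on which of them is kept. *Cd164*, a sialomucin, fitted at -0.19 (SE 0.08, adjusted p = 0.268). Among 24 tested genes of other kinds of O-glycosylation, 1 was lower and 1 higher (median -0.01), beside 2.29% and 1.72% of all genes. These were *Tmtc2* (-0.81, SE 0.22, adjusted p = 0.0764 in edgeR's quasi-likelihood test) and *Tmtc1* (0.79, SE 0.19, adjusted p = 0.0535), both of a family of endoplasmic reticulum proteins linked to O-mannosylation of cadherins. *Tmtc2* went from 22 ± 5.5 to 12.6 ± 3.75 CPM and *Tmtc1* from 25.2 ± 7.84 to 43.6 ± 8.66 CPM. Both calls were lost when WT embryo 1, WT embryo 2, *Lmx1a-/-* embryo 4 or *Lmx1a-/-* embryo 5 was left out, with the *Xist* or choroid plexus covariate, among the libraries with Y-linked transcripts and at a threshold of 0.05. That of *Tmtc2* was also lost without WT embryo 3, WT embryo 4 or *Lmx1a-/-* embryo 3, with the CH covariate and with a replicate block. Over 22 alternatives the adjusted p ranged from 0.00211 to 0.43 for *Tmtc1* and from 0.0076 to 0.488 for *Tmtc2*, with the direction of each the same in all of them.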

How the data were processed

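RNA-seq counts per gene were analyzed for the CH of 5 WT and 5 *Lmx1a-/-* embryos. According to the methods of the study and its processing notes, the authors made the table from paired-end reads with Trimmomatic for trimming, STAR 2.7.1a for alignment (GRCm38) and HTSeq 0.11.2 for counts per Ensembl gene. The deposited values are raw counts, without normalization, and of 52508 rows 281 exact repeats were dropped. The number of reads on a gene sets the precision of its level, and p-values set the difference between genotypes against the spread between embryos.

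The 21664 genes that reached 10 counts in 3 or more libraries were scaled by TMM and compared with edgeR 4.0.16 in R 4.3.3 (glmQLFit, legacy method), and p was adjusted by the Benjamini-Hochberg method over all genes, with 0.1 as the threshold. Each SE was taken as the absolute log2 fold change over the square root of the F statistic. CPM are TMM-normalized, and log values use an offset of 0.5 CPM. Positions and exons are those of GENCODE M21 (GRCm38), and promoters those of RefSeq GRCm38.p6. Proteins were aligned end to end with Biopython 1.88. No 2 libraries agreed within sampling noise (chi-square per degree of freedom of at least 16.9 over 45 pairs). The fits were tested on simulated counts.

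The members and lists were chosen with earlier results of these data known. The genes named are all members, the other family genes, *Lmx1a*, in each pathway list the genes past the threshold or else the 2 with the smallest p, the 5 genes most like *Galnt14* by either measure, and *Xist* and choroid plexus markers as covariates. *Ttr*, *Kl*, *Lrp2*, *Lrp8*, *Vldlr*, *Cd34* and the neighbours of *Galnt14* with the features inside it were added after their values were seen. Alternatives were DESeq2 1.42.0, other dispersions, scaling, filters, covariates and thresholds, a replicate block and each embryo left out.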

Additional observations from a re-analysis of the deposited data

Results flagged for a closer look

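*Galnt18* in WT embryo 4 stood at 8.61 CPM, far above the other 4 WT embryos at 1.37 to 3.38 CPM. The gap to its neighbour was 0.722 of the range of the group, above the critical value of 0.71 for 5 samples. Among the 20 groups of 5 checked (the 9 tested members and their sum, in each genotype), it was the one value that far from the rest, and chance alone would give about 1 in 20.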

How the results depend on the processing

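Among the 10 results that leave out 1 embryo each, the number of genes called ran from 451 to 1059 and that of members called from 1 to 2, against 870 and 2. DESeq2 called 1766 genes, a threshold of 0.05 left 448, and the covariates *Xist*, choroid plexus mean and CH mean left 31, 36 and 293, with 1, 0 and 1 members called. The libraries with Y-linked transcripts alone gave 130 genes and 1 member. Scaling by library size only gave 427 lower and 430 higher genes, against 497 lower and 373 higher. The same embryo number in both genotypes does not pair embryos (r of the deviations from -0.136 to 0.0332), and a replicate block gave 601 genes and the same number of members, 2. *Galnt14* was selected on this contrast, so its values here are a description and not a test. Its log2 fold change was negative in all 21 alternatives, from -2.87 to -1.40, and fell short of the threshold with the choroid plexus covariate. The sign turned for *Galnt1* (0.04) and *Galnt3* (0.02) with the choroid plexus covariate, for *Galnt3* (0.17), *Galnt11* (0.01) and *Galnt16* (-0.23) with the CH covariate, for *Galnt11* with the *Xist* covariate (0.23) and with Y-linked libraries only (0.20), and for *Galnt16* with the choroid plexus covariate (-0.19). It also turned for *Galnt16* without WT embryo 4 (-0.0017), *Lmx1a-/-* embryo 1 (-0.01) or *Lmx1a-/-* embryo 2 (-0.01), and for *Galnt18* without WT embryo 4 (0.06), where values with 1 embryo left out ran to 0.16 for *Galnt16* and down to -0.65 for *Galnt18*. None of these passed the threshold, and the cause was not tested. With the longest transcript as length, *Galnt14* stood at 11.2 CPM per kb in WT and 1.78 in *Lmx1a-/-* embryos, against 5.7 and 0.901, still below *Galnt1* and *Galnt7* only in WT. Spearman correlation gave 4 of the 5 genes most like *Galnt14* in deviations, and 1 of 5 with the genotype difference kept. Depth limits *Galnt5*, *Galnt6*, *Galnt9*, *Galntl5* and *Galntl6*, each with libraries under 10 counts.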

Other observations

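Among the members above 10 CPM in WT, *Galnt14* varied most between WT embryos relative to its level. Its coefficient of variation was 41.5% in WT, which rested on WT embryo 3 and was 23.2% without it. The same values were 24.7% and 18.2% for *Galnt10*, 21.8% and 14.7% for *Galnt7*, 15.5% and 16.9% for *Galnt11*, 15.2% and 10.4% for *Galnt16* and 10.6% and 11.5% for *Galnt1*. At a lower level, *Galnt3* and *Galnt18* varied by 54.7% and 69.1% in WT. Among the genes of other kinds of O-glycosylation and nucleotide sugar supply, *B4gat1*, an enzyme of the dystroglycan glycan, was at most 0.0681 CPM in every library, and *Gnpnat1*, an enzyme of UDP-sugar synthesis, averaged 0.315 CPM in WT and 0.311 CPM in *Lmx1a-/-* embryos. Whether overlapping gene models lower these counts, as the annotation allows for *Galnt2*, was not tested. *B4gat1* and *Gnpnat1* were chosen after their values were seen.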
